A study of Bos taurus with 20 samples.

Results

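CD101 is a cell surface receptor of the immunoglobulin superfamily. The gene was chosen because the study selected it as a biomarker of calf birth weight (BW) on these same cows, and it is 1 of the 37063 genes listed in the counts, under Entrez identifier 509609. At day 63 of gestation blood was drawn into tubes that lyse the cells and stabilize their RNA, from 20 recipient cows that each carried 1 female beef breed fetus from an in vitro-produced embryo, and 1 library per cow was sequenced. There was no treatment and no control group, and BW of the calf is the only variable between cows that the labels give. The labels name no breed or age of the cows. The study's methods describe the recipients both as lactating dairy cows and as Angus, and give their age only as a range of years. Each cow is named below by the BW of its calf in kg, so that cow 45 is the cow whose calf weighed 45 kg.

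In mice, CD101 appears on the surface of neutrophils late in their maturation and is used to separate mature from immature cells, whereas in humans it is also known from monocytes, dendritic cells and some T cells. It is described as an inhibitory receptor that dampens the activation of the cells that carry it. Circulating neutrophils carry receptors for granulocyte colony-stimulating factor (CSF3R) and for chemokines (CXCR1 and CXCR2). They make the proteins of their granules, such as lactotransferrin (LTF), earlier, in the marrow. In whole blood, a cow with fewer cells of a type and a cow with less of the RNA per cell cannot be told apart.

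The total count per cow ranged from 24632077 to 39892111, with a median of 33412740. Each of the 190 pairs of libraries differed by more than sampling noise, with a chi-square per degree of freedom of 13.3 or more over genes. Neither the labels nor the methods name a sequencing batch, so no comparison within batches could be made.

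CD101 was read 2912 to 7914 times per library. In CPM, which relates the counts of a gene to the library total as scaled by the TMM method of edgeR, its level was 167 ± 36.8 (SD, n = 20 cows), with a lowest value of 99.4, a median of 173 and a highest value of 221, so that the highest cow had 2.23 times the CPM of the lowest. Cows 30, 41.5, 38 and 43 were the highest, at 221, 215, 210 and 204 CPM. Cows 45, 47.4, 56 and 72.5 were the lowest, at 99.4, 104, 115 and 126 CPM. Ordered from high to low, 14 of the 19 neighbouring pairs of cows had overlapping exact Poisson 95% intervals. Such overlap is not a test of the order within a pair. These intervals cover counting error only, which was 1.12% to 1.85% of the count, and there was no second library from any cow.

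The spread between cows was wide for a gene of this abundance. On the log2 scale the SD of CD101 over the 20 cows was 0.35, compared with a median SD of 0.12 over the 1494 genes with a mean between 100 and 250 CPM, and 96.3% of these genes had a smaller SD. Library depth moved little with CD101, with a Pearson correlation between log2 CPM and log2 total count of 0.21 and a Spearman correlation of 0.19 (n = 20, given as a description).

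The relation of CD101 with BW is given as a description, without a test, because the study had selected the gene for predicting BW in these cows. CD101 was lower on average in cows with heavier calves. In the 10 cows with the lightest calves the CPM was between 158 and 221, with a median of 192, and in the 10 cows with the heaviest calves it was between 99.4 and 193, with a median of 140. The ranges overlapped, since cows 50, 53 and 54 had 182, 180 and 193 CPM. Over all 20 cows the Pearson correlation between log2 CPM and BW was -0.51 and the Spearman correlation was -0.51. It was -0.47 (Spearman -0.45) in the 19 cows without the 72.5 kg calf, which the study left out as an outlier of BW. Without cows 72.5 and 30 it was -0.39 (Spearman -0.36).

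**Figure D1:**
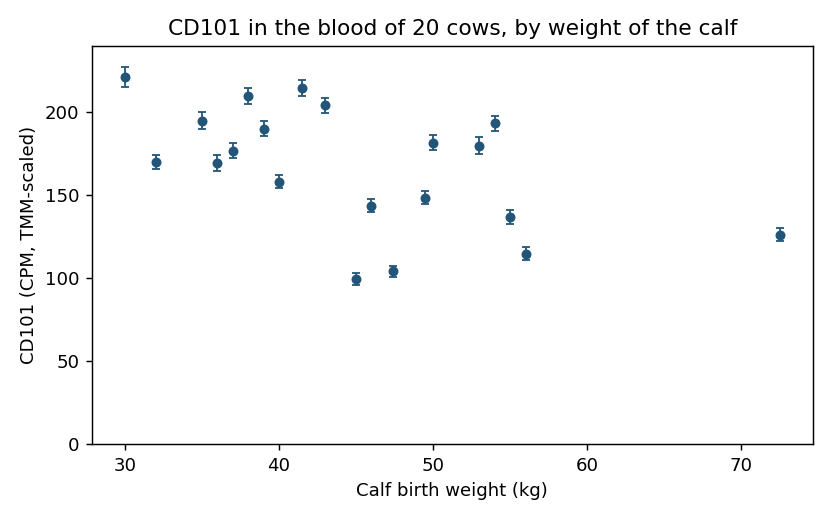
CD101 in CPM (vertical axis, from 0) against calf BW in kg (horizontal axis), 1 point per cow, with exact Poisson 95% intervals for counting error. Cow 30 had the highest value, 221 CPM, and cow 45 the lowest, 99.4 CPM.

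Fitted with edgeR across all 16206 genes of the 19 cows, the slope of CD101 was -0.019 per kg of BW on the log2 scale (standard error, SE, 0.0083), which corresponds to -12.4% per 10 kg. The slope was -0.024 without cow 54 and -0.015 without cow 56, which were the extremes when 1 cow was left out at a time. With the neutrophil, eosinophil and monocyte scores described below as covariates it was -0.014. The eosinophil score itself had a Pearson correlation with BW of 0.47 (Spearman 0.52), and the neutrophil score one of -0.15 (Spearman -0.19). The part of these cells in the relation with BW was not tested.

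The question then was which other genes varied with CD101 from cow to cow. Each of the other 16268 genes that had 10 counts or more in 5 or more cows was fitted with edgeR's quasi-likelihood test on the log2 CPM of CD101 in all 20 cows. The slope states by how many log2 units a gene differed per log2 unit of CD101, and the false discovery rate (FDR) was adjusted over all genes tested. A total of 108 genes (0.664%) had an FDR below 0.05, of which 69 (0.424%) had a positive and 39 (0.24%) a negative slope. Some of the called genes with steep negative slopes were only weakly correlated with CD101 over the cows. COL1A2 had a slope of -5.06 with a Pearson correlation of -0.30 and a Spearman correlation of -0.09. For ELAVL3 the slope was -8.46, with correlations of -0.31 and -0.15. The unadjusted p was below 0.05 for 2536 genes (15.6%), and the median slope over all genes was -0.0071. The count depended on single cows and on the tool. Without cow 56, 39, 45, 38, 47.4 or 46 there were 19, 28, 40, 41, 43 and 54 genes, and there were 193 without cow 55 and 200 without cow 49.5. DESeq2 called 622 of 14180 genes (4.39%), including 105 of the 108, and limma-trend 181 (1.11%), including 104.

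The gene most like CD101 was RNF150, which encodes a membrane protein with a RING finger domain. It had 158 CPM in the lowest cow, a median of 235 and 296 CPM in the highest, and its lowest cow, cow 45, was also the lowest for CD101. The Pearson correlation of the log2 CPM with CD101 was 0.88 (Spearman 0.83, n = 20), and the slope was 0.59 (SE 0.078, edgeR FDR 0.00208). LYN, a kinase of the Src family that phosphorylates inhibitory receptors in myeloid cells and B cells, followed with a correlation of 0.87 (Spearman 0.85). Its CPM was between 626 and 950, with a median of 786, the lowest value in cow 47.4 and the highest in cow 30. The slope of LYN was 0.38 (SE 0.053, edgeR FDR 0.0038). Without cows 45 and 47.4, which lay farthest from the median of CD101, the Pearson correlation was 0.80 for RNF150 and 0.83 for LYN.

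The other 8 of the 10 genes with the highest Pearson correlation among those with a mean of at least 1 CPM were ZNF330, PLEK, CD177, ALPK1, CD82, TFEB, PLEKHM3 and OXSR1, with correlations between 0.79 and 0.83. PLEK encodes pleckstrin, a substrate of protein kinase C in platelets and leukocytes. ALPK1 is a kinase that senses bacterial sugars, CD82 is a tetraspanin, and TFEB is a transcription factor of lysosomal genes. Slopes were between 0.18 for OXSR1 and 3.24 for CD177, and all but OXSR1, at 0.0504, passed an FDR of 0.05 with edgeR. When 1 cow was left out at a time, RNF150, LYN, ZNF330, PLEK, CD177, ALPK1 and TFEB were called in each of the 20 fits. With the neutrophil, eosinophil and monocyte scores described below as covariates, LYN alone of these 7 kept its call (edgeR FDR 0.000319), and the other 6 had an FDR between 0.0623 for TFEB and 0.164 for PLEK. The 5 genes with the lowest correlations were KIAA0319L, LEPROTL1, YIPF5, LOC132342615 and FAM120A, between -0.81 and -0.79, with slopes between -0.61 and -0.19 and an FDR between 0.0271 and 0.0488. KIAA0319L lost its call in 15 of the 20 fits without 1 cow (FDR up to 0.176), FAM120A in 10, YIPF5 in 9, LEPROTL1 in 4 and LOC132342615 in 3, and all 5 lost it with the 3 scores as covariates.

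Markers of neutrophils were examined from a list of 25 genes, of which 23 were tested. Of these, 19 were positively and 4 negatively related to CD101, with a median slope of 0.40 compared with -0.0071 over all genes. With edgeR, 3 of the 23 rose with CD101 at an FDR below 0.05, beside 0.424% of all genes tested, and 10 had an unadjusted p below 0.05, beside 15.6% of all genes. The 3 genes were CD177, CXCR1 and CSF3R. DESeq2 called these and CXCR2, beside 4.39% of all genes, and limma-trend the same 3, beside 1.11%.

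CD177, a glycoprotein on the surface of neutrophils, was low and varied most of the 3. It was lowest in cows 47.4 and 45, at 0.44 and 0.55 CPM, the median was 2.76, and cow 41.5 stood apart with 19.1. Both of the lowest cows for CD177 were the lowest for CD101 as well. The slope was 3.24 (SE 0.52, edgeR FDR 0.0124, Pearson correlation 0.81, Spearman 0.79), and it was 2.53 without cow 41.5.

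CXCR1, a receptor for interleukin 8, had 32.1 CPM in cow 45, a median of 58.5 and 91.2 CPM in cow 50. Its slope was 0.76 (SE 0.16, edgeR FDR 0.039, Pearson correlation 0.74, Spearman 0.70). The FDR was above 0.05 without cow 38, 39, 45, 46, 47.4 or 56, at most 0.102 without cow 45. CSF3R, the receptor for granulocyte colony-stimulating factor, had 1117 CPM in cow 56, a median of 1840 and 2438 CPM in cow 54. Its slope was 0.61 (SE 0.14, edgeR FDR 0.0487, Pearson correlation 0.71, Spearman 0.48). When cows were left out singly, CSF3R kept its call in 8 of 20 fits, with an FDR between 0.0124 without cow 55 and 0.122 without cow 56. The 5 cows with the least CSF3R, cows 56, 45, 46, 47.4 and 72.5, were among the 6 with the least CD101. Among the other 15 cows CSF3R did not order the cows as CD101 did, since cow 54 had the most CSF3R and the sixth highest CD101, and cow 55 had 2217 CPM of CSF3R with 137 CPM of CD101.

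CXCR2, the partner of CXCR1, had a slope of 0.49 (SE 0.17, edgeR FDR 0.149) and did not pass. The 4 neutrophil genes with a negative slope included PADI4, an enzyme of neutrophil extracellular traps, with -0.71 (edgeR FDR 0.282).

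**Figure D2:**
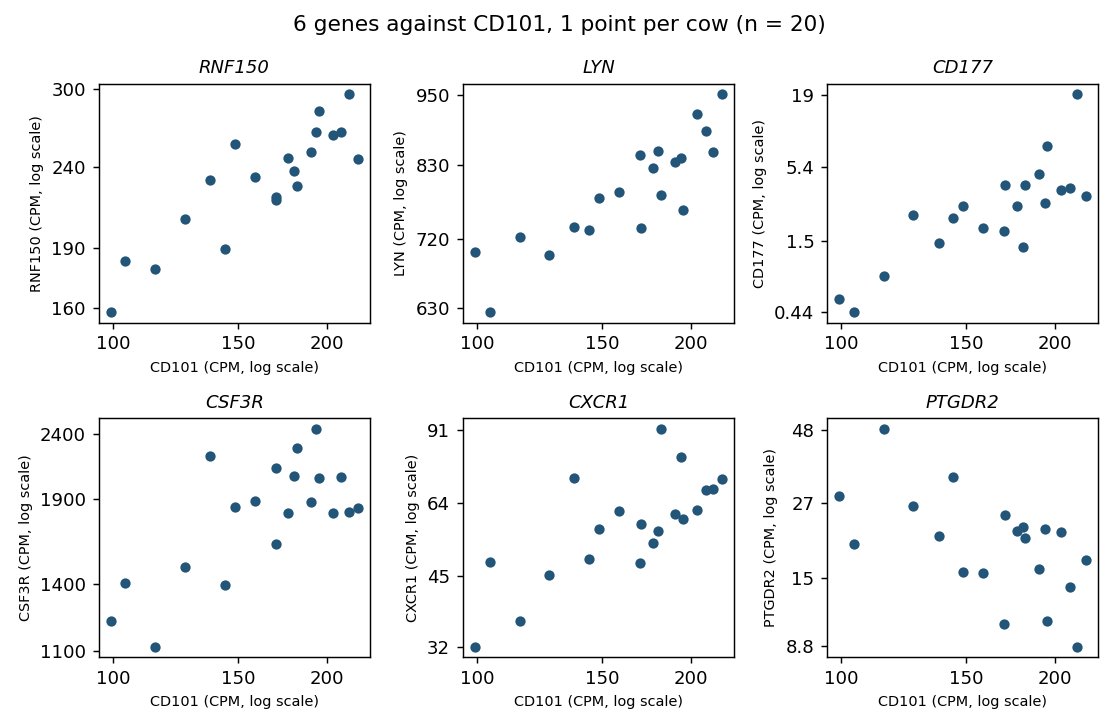
CPM of 6 genes (vertical axes, log scale) against CPM of CD101 (horizontal axes, log scale), 1 point per cow (n = 20). RNF150, LYN, CD177, CSF3R and CXCR1 were higher in cows with more CD101 (Pearson correlations of 0.71 to 0.88), and PTGDR2, an eosinophil marker that did not pass the test, had a correlation of -0.58.

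Several genes of neutrophil granules, which are made before the cells leave the marrow, had few reads in this blood. Of the 19 listed genes, 18 were matched to a single identifier and 9 passed the count filter. The cathelicidins CATHL1, CATHL2, CATHL3, CATHL5 and CATHL6 had 2 to 22 reads each over all 20 cows. How reads shared within such a family were counted is not known. The 9 tested genes had a mean between 0.82 CPM for PGLYRP1 and 65.3 CPM for HP. The slope on CD101 was above 0 for 8 of the 9 (median 0.74), and 0 passed with edgeR, DESeq2 or limma-trend. With edgeR, 5 had an unadjusted p below 0.05, beside 15.6% of all genes, and MPO, with a negative slope, was among these 5. The smallest FDR was that of OLFM4, at 0.141 with edgeR and a slope of 0.84 (standard error 0.28). LTF, the defining gene of the secondary granules, had a slope of 3.57 (SE 1.34, edgeR FDR 0.191) that was 1.31 without cow 35. In that cow LTF was at 48.5 CPM, whereas the median was 1.45 and cow 72.5 had 0.17. MPO, the peroxidase of the primary granules, had a slope of -1.21 (SE 0.47, edgeR FDR 0.205), which was -0.79 without cow 56. Cows 56, 46 and 45 had the most MPO, at 41.1, 38.8 and 21.3 CPM. The same cows had the most of the eosinophil marker PTGDR2, at 48.3, 33.2 and 28.5 CPM. Which cells gave the MPO reads was not tested.

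Eosinophil markers lay on the opposite side. All 6 of the tested genes, of 14 listed, had a negative slope on CD101, with a median of -1.05, and all 6 had an unadjusted p below 0.05, beside 15.6% of all genes, but 0 passed with edgeR or limma-trend and 1, PTGDR2, with DESeq2, beside 4.39%. PTGDR2, the receptor for prostaglandin D2 on eosinophils and basophils, had 8.77 CPM in cow 41.5, a median of 20.7 and 48.3 CPM in cow 56, which thus had the most PTGDR2 and the third lowest CD101. Its slope was -1.0 (SE 0.29, edgeR FDR 0.0931). IL5RA, the receptor for interleukin 5, had between 20.2 and 199.9 CPM and a slope of -1.22 (SE 0.46, edgeR FDR 0.193), which was -0.73 without cow 56, the cow with the most IL5RA. OLIG2 had the steepest slope, -3.73 (SE 1.24, edgeR FDR 0.135), with 8.70 CPM in cow 46 and no read in 3 cows. The chemokine receptor CCR3, the defining surface marker of eosinophils, was listed at 0 in every library and could not be used.

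The 5 tested markers of basophils and mast cells had slopes between -0.022 and 0.29, with 0 at an unadjusted p below 0.05 and 0 called with edgeR, DESeq2 or limma-trend. MS4A2, a chain of the high-affinity receptor for immunoglobulin E, had a slope of 0.15, GATA2 of 0.29 and KIT of 0.17. These depended on single cows, being between 0.034 (without cow 47.4) and 0.48 (without cow 45) for MS4A2, between 0.19 and 0.41 without the same cows for GATA2, and between 0.099 (without cow 56) and 0.26 (without cow 45) for KIT.

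Of the 15 monocyte markers tested, the slope on CD101 was above 0 for 10 and below 0 for 5, with a median of 0.14. With edgeR 0 passed, 4 had an unadjusted p below 0.05, beside 15.6% of all genes, and 1, CD68, was called with DESeq2 and with limma-trend, beside 4.39% and 1.11%. CD68, a lysosomal protein of macrophages and monocytes that granulocytes also carry, had between 126 and 309 CPM, with cows 56, 45 and 46 at the low end. Its slope was 0.68 (SE 0.16, edgeR FDR 0.0504). The defining monocyte genes had smaller slopes, 0.24 for CD14 (SE 0.20, edgeR FDR 0.625), the receptor for bacterial lipopolysaccharide, and 0.10 for CSF1R (SE 0.19, edgeR FDR 0.857), the receptor for the monocyte growth factor. Without cow 56 these were 0.064 and -0.040. CD300E had a slope of -1.11 (edgeR FDR 0.247) and KLF4 of 0.42 (edgeR FDR 0.266).

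**Figure D3:**
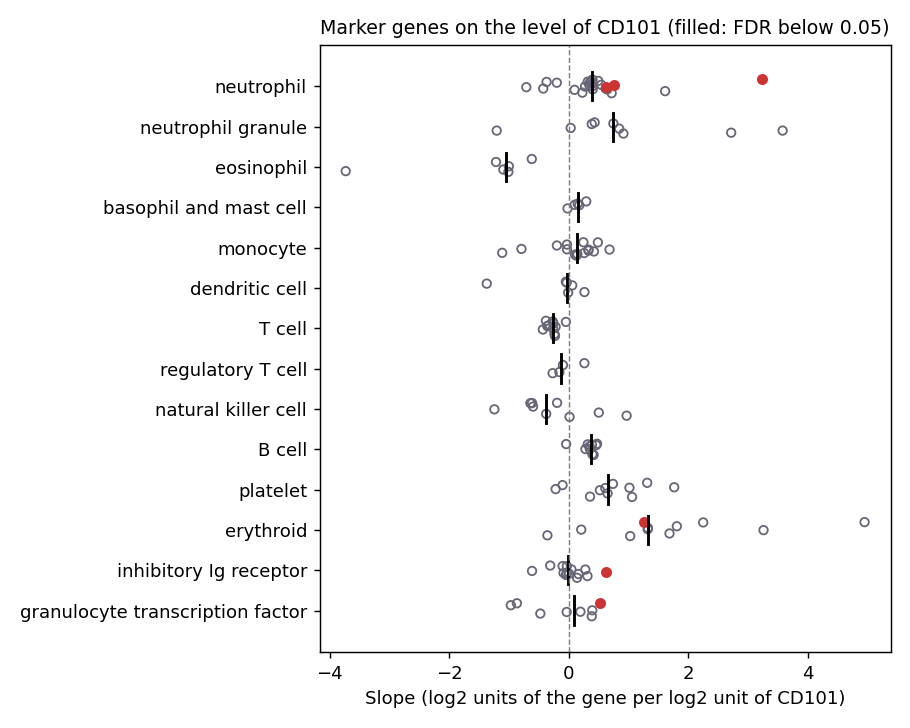
Slope of each tested marker gene on CD101 (horizontal axis, log2 units of the gene per log2 unit of CD101) for the 14 marker lists (vertical axis), with 1 circle per gene, filled where the edgeR FDR was below 0.05, and a bar at the median of the list. Filled circles are in the neutrophil list (3 genes) and, with 1 gene each, in the erythroid, inhibitory Ig receptor and granulocyte transcription factor lists.

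A score was then calculated for each list as the mean over its genes of the z-scores of log2 CPM, and 14 lists were compared with CD101 over the 20 cows. The neutrophil score had a Pearson correlation with CD101 of 0.50 (permutation p = 0.0246, 0.0689 after adjustment over 14 lists), and its Spearman correlation was 0.46 (permutation p = 0.0404, adjusted 0.0839). The eosinophil score had -0.53 (permutation p = 0.0171, adjusted 0.0689) and -0.48 (permutation p = 0.0315, adjusted 0.0839), and the monocyte score 0.29 (permutation p = 0.212, adjusted 0.270) and 0.21 (permutation p = 0.369, adjusted 0.470). None of these 3 passed after adjustment. Without the 2 cows farthest from the median of each score, the Pearson correlation was 0.42 for neutrophils (permutation p = 0.0795), -0.38 for eosinophils (permutation p = 0.124) and 0.037 for monocytes (permutation p = 0.885), so that all 3 were weaker.

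The score that passed was that of T cells, which had a Pearson correlation with CD101 of -0.63 (permutation p = 0.00313, 0.0438 after adjustment over 14 lists), and its Spearman correlation was -0.66 (permutation p = 0.00191, adjusted 0.0267). Cow 47.4 had the highest T cell score and the second lowest CD101, and cow 43 the lowest T cell score and the fourth highest CD101. Without these 2 cows the Pearson correlation was -0.47 (permutation p = 0.0466). With 1 cow left out at a time the adjusted p was between 0.00546 and 0.0938, and it was below 0.05 in 4 of the 20 cases, those without cow 30, 32, 38 or 72.5. By gene, all 11 T cell markers had a negative slope on CD101 (median -0.26) and 9 had an unadjusted p below 0.05, beside 15.6% of all genes. With edgeR or limma-trend 0 passed, and with DESeq2, which called 4.39% of all genes, 4 did, namely CD2, CD3D, CD3G and CD6. CD6, a T cell adhesion receptor, had the smallest FDR with edgeR, 0.0722, and a slope of -0.43 (standard error 0.12). All lists were measured in the same 20 libraries, so their correlations with CD101 are not independent of each other.

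**Figure D4:**
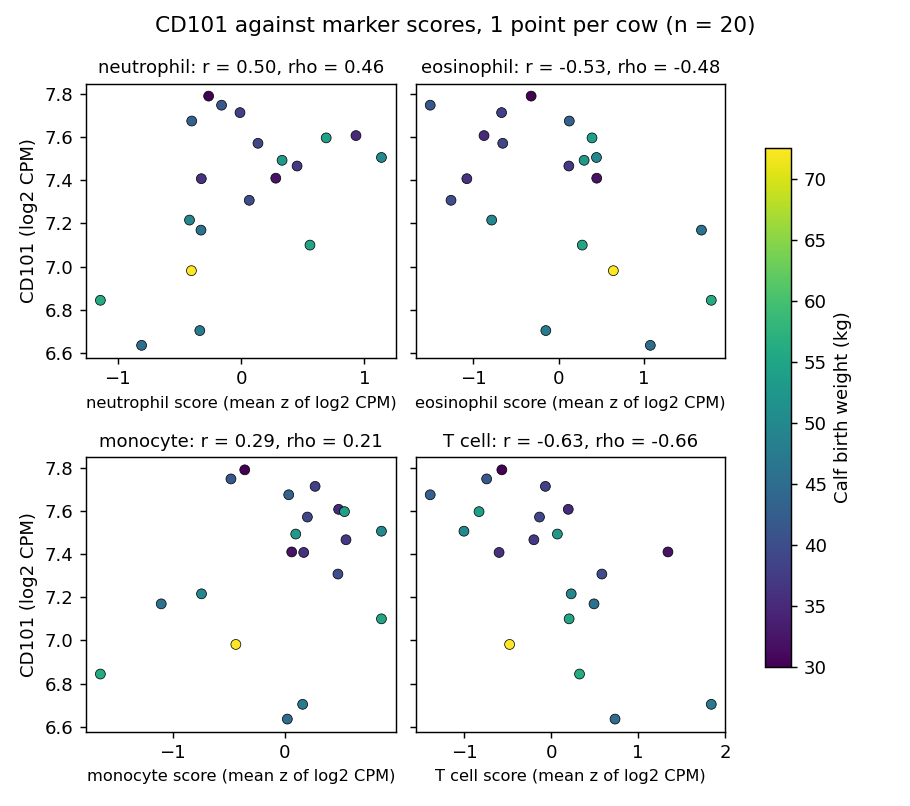
CD101 in log2 CPM (vertical axes) against the neutrophil, eosinophil, monocyte and T cell scores (horizontal axes, mean z-score of log2 CPM), 1 point per cow coloured by calf BW in kg. Pearson correlations were 0.50, -0.53, 0.29 and -0.63.

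In 1 edgeR fit across all genes with the neutrophil, eosinophil and monocyte scores together, CD101 was higher by 0.24 log2 units per SD of the neutrophil score (standard error 0.090, unadjusted p = 0.0145, FDR of 0.363 with edgeR, where 0.227% of all genes were called). Per SD of the eosinophil score the difference was -0.18 (standard error 0.060, unadjusted p = 0.00615, FDR of 0.069 with edgeR, where 7.67% of all genes were called), and per SD of the monocyte score it was -0.16 (standard error 0.094, unadjusted p = 0.114, FDR of 0.437 with edgeR, where 1.82% were called). None of the 3 passed over all genes with edgeR, and DESeq2 called the eosinophil score. The neutrophil and monocyte scores had a Pearson correlation of 0.78 with each other, so that this fit separates them poorly. With the 3 scores as covariates, 15 genes still followed CD101 at an FDR below 0.05, of which 8 were among the 108. CSF3R, CXCR1 and CD177, which are part of the neutrophil score, were then at an FDR of 0.25, 0.245 and 0.133 with edgeR.

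The marker scores of erythroid cells, platelets, B cells and natural killer cells did not pass against CD101. Their Pearson correlations were 0.53 for erythroid (adjusted permutation p = 0.0689), 0.49 for platelet (adjusted permutation p = 0.0689), 0.50 for B cell (adjusted permutation p = 0.0689) and -0.45 for natural killer cell markers (adjusted permutation p = 0.0855). Of the 10 B cell markers tested, 9 had a positive slope (median 0.37) with 0 called with edgeR and limma-trend and 2 with DESeq2, and of the 11 platelet markers 9 did (median 0.65), with 0, 0 and 2 called. Of the 9 natural killer cell markers, 6 had a negative slope (median -0.38), with 0 called with edgeR and limma-trend and 3 with DESeq2. Over all genes edgeR called 0.664%, limma-trend 1.11% and DESeq2 4.39%. Of the 11 erythroid genes 10 had a positive slope (median 1.32) and 1 was called with edgeR, EPB42, a protein of the red cell membrane, with a slope of 1.25 (standard error 0.28, FDR of 0.0429), whereas limma-trend called 2 and DESeq2 3. Dendritic cell and regulatory T cell markers had median slopes of -0.024 and -0.13, and 0 of 6 and 0 of 4 were called with each of the 3 tools, with 1 gene of each list at an unadjusted p below 0.05, near the 15.6% of all genes. The part of these cells in the level of CD101 was not tested.

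Among 14 tested genes of inhibitory receptors of the immunoglobulin superfamily and the phosphatases they recruit, the signs of the slope were evenly split, 7 and 7 (median -0.015). The 1 gene called with edgeR was TARM1, which is known as an activating rather than an inhibitory receptor of myeloid cells, with a slope of 0.62 (standard error 0.14, FDR of 0.039). The phosphatase gene PTPN6 had a slope of 0.16 and LAIR1 of -0.10, and neither passed. Of the 14 genes DESeq2 called 2, TARM1 and CD300A, and limma-trend 1. Over all genes the tools called 0.664% (edgeR), 4.39% (DESeq2) and 1.11% (limma-trend). CD300A rose by 0.28 log2 units per log2 unit of CD101, but its edgeR FDR was 0.102. Among 8 transcription factors of granulocytes, CEBPB, a factor of emergency granulopoiesis, had a slope of 0.52 (SE 0.12, edgeR FDR 0.0456). GFI1, which is needed for neutrophil differentiation, had a slope of -0.48 (SE 0.14, edgeR FDR 0.0895). The slope was -0.87 (edgeR FDR 0.296) for CEBPE, a factor of secondary granule genes, and -0.97 (edgeR FDR 0.281) for GATA1. Of the 8 factors, 4 had a positive and 4 a negative slope (median 0.079). DESeq2, which called 4.39% of all genes, called CEBPB with a positive and GFI1 with a negative slope, and limma-trend, which called 1.11%, CEBPB.

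CD101 belongs to the EWI family of receptors, together with PTGFRN, IGSF3 and IGSF8. PTGFRN, with 25.1 to 56.7 CPM, had a slope on CD101 of 0.33 (SE 0.19, edgeR FDR 0.423), IGSF8 of -0.0021 and IGSF3, which was at about 1 CPM or below, of 0.17, and 0 of the 3 passed with edgeR, DESeq2 or limma-trend or had an unadjusted p below 0.05. In the ARS-UCD2.0 annotation PTGFRN and TTF2 are the protein-coding genes next to CD101, and 0 annotated genes overlap it, so that reads of an overlapping gene are not counted with it in that annotation. TTF2 had a correlation with CD101 of 0.37 (Spearman 0.44). CD2, the T cell adhesion receptor, lies next to PTGFRN and had a correlation of -0.63 (Spearman -0.66), opposite in sign to that of PTGFRN at 0.35 (Spearman 0.32).

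CD101 is a member of Cluster 4, one of the study's clusters of genes whose level changed over gestation, which were defined with these cows among others. The list used here holds only the other genes of the cluster that have a gene name, and leaves out its unnamed genes. Of these 77 genes, 71 were tested and 57 had a positive slope on CD101 (median 0.35). With edgeR 8 rose with CD101, among them CXCR1, DUSP2, ISG20, KCNJ16 and TARM1 with slopes between 0.62 and 1.39, beside 0.424% of all genes, and 0 fell. DESeq2 called 20, all positive, beside 4.39% of all genes in either direction, and limma-trend 12, all positive, beside 1.11%. Because the cluster groups genes of like pattern over samples that include these, the count is not independent of the way the list was made. Of the other 25 genes that the study selected from gestational genes as biomarkers with CD101, the slope on CD101 was above 0 for 15 and below 0 for 10 (median 0.011), 6 had an unadjusted p below 0.05, beside 15.6% of all genes, and 0 were called with edgeR and limma-trend. DESeq2 called 1 of the 25, near the 4.39% it called of all genes. This was IRF7, a transcription factor of the interferon response, which had a slope of 0.95 (SE 0.23, edgeR FDR 0.0504) and a correlation with CD101 of 0.64 (Spearman 0.67).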

How the data were processed

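Whole blood RNA of 20 cows was sequenced, 1 library per cow. Raw counts per Entrez identifier, without normalization, were deposited by the authors, who used Trimmomatic for trimming, STAR 2.7.0b for alignment to ARS-UCD1.3, and featureCounts (Subread 2.0.3). The library kit differs between the methods and the labels, and the strand setting and the handling of multi-mapping reads are not given in the sources used here, so genes of families are uncertain. All 37063 identifiers had a symbol in the RefSeq gene table given for ARS-UCD2.0. Its coordinates are not printed because the build differs, and no sequence was used.

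From the counts, edgeR 4.0.16 in R 4.3.3 gave TMM-scaled CPM, log2 CPM with a prior count of 2, and quasi-likelihood fits for genes that had 10 counts or more in 5 or more cows. The standard error is the slope divided by the square root of F. Adjustment followed Benjamini and Hochberg, and p-values across genes come from models fitted to all genes. Correlations over cows used two-sided permutation tests with 100000 resamples, adjusted over 14 lists. Alternatives were DESeq2 1.42.0, limma 3.58.1, other size factors, no filter, covariates, and the omission of each cow. The T cell and eosinophil scores as covariates of BW, the fit without the cows of the 30 and 72.5 kg calves, and the EWI family were added after seeing the data. The fit on CD101 was also run on simulated counts in which genes were drawn independently of each other. That run cannot speak to calls that arise because genes vary together between cows.

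CD101 and the lists were chosen with earlier results of these data known. Genes named are CD101, the 10 highest and 5 lowest Pearson correlations with it among genes with a mean of at least 1 CPM, the 3 smallest p-values in each of the neutrophil, granule, eosinophil, basophil and monocyte lists, and the markers CSF3R, CXCR2, LTF, CCR3, MS4A2, CD14 and CSF1R. Others were named after their values were seen. The authors' own lists of comparisons were not used. Scores were computed in R, and permutations with numpy 2.4.6 in Python 3.11.15, with ranks from scipy 1.17.1. The p-values set each slope or correlation against the variation between these cows.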

Additional observations from a re-analysis of the deposited data

How the results depend on the processing

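The slope of CD101 on BW was negative under every alternative tried, between -0.024 and -0.014 per kg, and stayed within 1 standard error of the reported value. The number of genes that followed CD101 with edgeR, 108, was 195 with total count only (93 negative) and 286 without a filter (170 positive, 116 negative). It was 622 with DESeq2 (393 and 229), 181 with limma-trend (131 positive) and 160 with DESeq2 size factors (106 positive). With the 3 scores as covariates it was 15 (11 and 4). Without 1 cow it was between 19 and 200, with 15 to 148 positive and 4 to 69 negative. Under the 3 scores the slopes of OLFM4 (-0.16), LTF (-0.64), MPO (0.50), IL5RA (0.27) and CD300E (0.0092) changed sign, none of them called in either fit; IL5RA and CD300E are part of a score themselves. That of CSF1R was between -0.040 and 0.24 without 1 cow. For the scores, the first principal component was also used in place of the mean. The adjusted permutation p was then below the threshold of 0.05, between 0.0146 and 0.0385, for neutrophil (correlation 0.59), neutrophil granule (0.54), eosinophil (-0.52), natural killer cell (-0.65), B cell (0.51), platelet (0.52), erythroid (0.49), inhibitory Ig receptor (0.54) and granulocyte transcription factor lists (0.65). For regulatory T cells the correlation turned its sign (0.040). With total count only the eosinophil correlation was -0.58 and passed. Without 1 cow the correlations were 0.42 to 0.57 for neutrophil, -0.61 to -0.44 for eosinophil, -0.17 to 0.068 for dendritic cell, -0.71 to -0.50 for T cell, 0.37 to 0.59 for platelet and 0.44 to 0.61 for erythroid markers. In the fit of 3 scores the eosinophil slope was -0.19 with DESeq2 and passed, and without 1 cow it was between -0.22 and -0.16. The causes were not tested. No paired analysis was possible because all cows belong to 1 group. With 2912 reads or more per library, the counting error of CD101 was at most 1.85%.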

Other observations

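Among the 108 genes that followed CD101 with edgeR, several receptors and signalling genes of leukocytes outside the marker lists were seen, named here after their values were known. With a positive slope these included CXCR4 (0.65, standard error 0.12), the chemokine receptor that retains neutrophils in the marrow, IL1RN (0.56, standard error 0.11), which encodes the natural antagonist of interleukin 1, MYD88 (0.42, standard error 0.087), the adaptor of Toll-like receptors, and IFIT5 (0.90, standard error 0.19), an interferon-induced gene of a family whose reads may be shared. With a negative slope they included IL18R1 (-0.62, standard error 0.13), IL1RL1 (-0.95, standard error 0.20) and IL17RB (-0.69, standard error 0.15), which encode receptors for interleukins 18, 33 and 25, and CCR9 (-0.51, standard error 0.12), a homing receptor of lymphocytes for the gut. Their FDR was between 0.0268 and 0.0492.

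COL1A1, also named after its values were seen, had the fourth steepest slope of the 108 genes (-4.97, standard error 0.82), although its Pearson correlation with CD101 was -0.46 and its Spearman correlation was -0.46. The genes CCR3, ALOX15, CX3CR1, XCR1, GZMA, CD300LF and VSIR of the marker lists were listed at 0 in all 20 libraries.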
